A study of Mus musculus with 18 samples.

Results

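Transplanted heart fibroblasts (HFs) were compared with transplanted tail fibroblasts (TFs), 3 libraries against 3, out of 18 libraries in 6 groups. The 6 libraries were taken by their sample titles, and every gene of the count table was considered. Donors of both cell types were male Rosa mT/mG mice of C57BL/6 background, 10 weeks old, whose cells carry the red fluorescent protein TdTomato. Heart or tail cells grew in culture for 10 days, were soaked into fragments of gelatin foam and were placed beneath the capsule of the kidney in C57BL6/J mice aged 10 to 11 weeks, syngeneic with the donors. After 3 days, CD45−;TdTomato+ cells were sorted from the kidneys and their total RNA was sequenced. Cells left over before surgery were replated as cultured controls of heart (HFc) and tail (TFc), with 3 libraries each, and these are used here beside the transplanted values. The sort kept red cells without the leukocyte marker CD45 and used no fibroblast marker. The study describes the 3 libraries of a condition as biological replicates and gave each transplant its own tube of cells, while it does not say for these libraries whether the cultures or recipients were separate, so that p-values measure the spread between these samples.

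Fibroblasts build and remodel the extracellular matrix of connective tissue, and they differ between organs in part by transcription factors that were active while the organ formed. *Hox* genes lie in clusters whose order follows the body axis, so that genes at the front of a cluster mark head-ward positions and genes at its back mark tail-ward ones. Heart fibroblasts derive largely from the epicardium, the outer layer of the heart, and are known to keep cardiac regulators such as *Gata4* and *Tbx20*, whereas skin and tendon fibroblasts of the tail derive from posterior mesoderm.

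At 3 days after both cell types had been moved to the same site, HFs and TFs differed in 3822 of 16577 genes tested (23.1%), at an adjusted p of 0.05. Of these, 1713 genes (10.3% of those tested) were higher in HFs and 2109 (12.7%) were lower. HFs held 11 of 17 cardiac transcription factors, 6 of 11 fibrillar collagens, 12 of 24 basement membrane genes and the contractile genes *Acta2* and *Tagln* at higher levels. TFs held 28 of 34 tested *Hox* genes, the matrix proteins *Thbs4*, *Comp* and *Cilp*, the collagenase *Mmp13*, 11 of 25 chemokines and the BMP antagonist *Grem1* at higher levels. Lower in HFs were 22 of 40 interferon-stimulated genes, 12 of 21 antigen presentation genes, 14 of 24 sterol synthesis genes and 19 of 28 DNA replication genes. None of these 4 lists had a higher member in edgeR or DESeq2, nor at an unadjusted p of 0.05, other than 1 DNA replication gene in edgeR without KFs replicate 3, a library of kidney fibroblasts. Levels are given as counts per 1000000 (CPM, scaled by edgeR's TMM factors), in the order of replicates 1, 2 and 3, and changes as the log2 fold change of HFs over TFs ± its standard error, with the adjusted p of edgeR's quasi-likelihood test. In RNA of a bulk sample, fewer cells of a type and less RNA per cell cannot be told apart.

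The groups did not overlap for 3742 (97.9%) of the called genes. With 3 libraries a group the call itself favours such genes, so this share is not separate support. Without HFs replicate 2 the number of lower genes was 1289 in place of 2109. A log2 fold change above 1 was reached by 887 of the higher genes and one below −1 by 835 of the lower genes. In 94 of the higher genes every TFs library was at or under a floor of 3 counts, and in 101 of the lower genes every HFs library was. This floor corresponded to between 0.114 and 0.18 CPM, and totals ran from 17927838 to 28949454 counts a library. For such genes the fold is given as a lower bound, computed against the mean floor of the group, and the fitted log2 value is not a bound. Floors cover counting error only. When libraries were scaled by their totals alone, the median log2 fold change of all genes moved by −0.22, from −0.03 to −0.25, and 1124 genes were higher and 4609 lower, so that higher genes made up 19.6% of the calls in place of 44.8%. The genes named below as higher or lower kept their direction under both scalings.

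Libraries of a group lay closer to each other than to the other group. The distance between a pair, taken as the root mean square of its 500 largest log2 differences, was 2.82 to 3.23 within HFs, 2.07 to 2.4 within TFs and 4.29 to 4.55 between the groups. Mitochondrial genes took 11.1%, 12.2% and 17.1% of the counts in HFs and between 10.3% and 11.9% in TFs, so that HFs replicate 3 stood above the others. All donors are labelled male, and 17 libraries held between 175 and 230 CPM of 4 Y-linked genes. The library labelled KFs replicate 3, of kidney fibroblasts, held 0.721 CPM of them and 1491 CPM of *Xist*. It is in neither group compared, and it enters the shared estimate of the spread. Without it 5244 genes were called in place of 3822.

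Markers of other cell types were summed list by list in each library. Fibroblast genes dominated, since 18 general fibroblast genes summed to between 99265 and 162110.3 CPM in HFs and between 47494 and 52158 CPM in TFs. Markers of the proximal tubule, the main cell type of the kidney cortex, summed to 419, 2515 and 312 CPM in HFs and to 767, 329 and 414 CPM in TFs. HFs replicate 2 thus stood apart, and without it the median log2 fold change of the 33 tubule genes went from 1.29 to −0.72. Of these genes *Pck1* was called higher, at 15.7, 57 and 42.7 CPM in HFs and 11.1, 14.5 and 14.4 CPM in TFs, and *Aqp1* lower, at 7.63, 17.8 and 5.46 CPM and 17.3, 18.1 and 25.1 CPM. *Pck1* kept its call without HFs replicate 1 alone of the 6 libraries and *Aqp1* without HFs replicate 2 alone, with log2 fold changes over all alternatives of 1.17 to 1.93 and −1.60 to −0.63. Macrophage markers summed to between 139 and 233 CPM in HFs and between 60.2 and 68.3 CPM in TFs, and 9 of 20 were higher in HFs, among them *Csf1r*, the receptor of the macrophage growth factor, at 14.8, 19.4 and 18.6 CPM against 5.08, 4.63 and 3.48 CPM. The gate had been set against CD45, and the CD45 gene *Ptprc* was at 3.73, 7.89 and 11.7 CPM in HFs and 4.12, 3.81 and 3.65 CPM in TFs. The count of higher macrophage markers was 16 without KFs replicate 3. It was 6 without HFs replicate 3 or TFs replicate 1 and 7 without TFs replicate 2 or 3. In the cultured libraries, which had not been in a recipient, macrophage markers summed to 145 to 168 CPM in HFc and 226 to 260 CPM in TFc. Endothelial markers summed to between 339 and 354 CPM in HFs and between 121 and 142 CPM in TFs, and in culture to 973 to 1013 CPM in HFc and 109 to 124 CPM in TFc. Of 17 tested, *Eng*, *Ptprb*, *Tek* and *Ehd3* were higher, against 10.3% of all genes. A positive log2 fold change was found in 15 of the 17 and a negative one in 2 (median 0.78). *Eng*, a TGF-beta co-receptor that fibroblasts also make, was at 165, 167 and 168 CPM in HFs and 32.4, 29 and 27.5 CPM in TFs. *Ptprb* and *Tek* had log2 fold changes of 4.18 to 4.61 and 1.12 to 1.52 over all alternatives. The defining endothelial gene *Cdh5*, without a call, was at 3.43, 1.45 and 2.31 CPM in HFs and 1.5, 0.863 and 1.31 CPM in TFs. Cardiomyocyte markers summed to 6.31 to 11.3 CPM in HFs and 3.96 to 5.3 CPM in TFs, and keratinocyte markers to at most 25 CPM in any library, with *Krt5* at 0 counts in all 6. The part of these cells in the differences below was not tested.

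**Figure D1:**
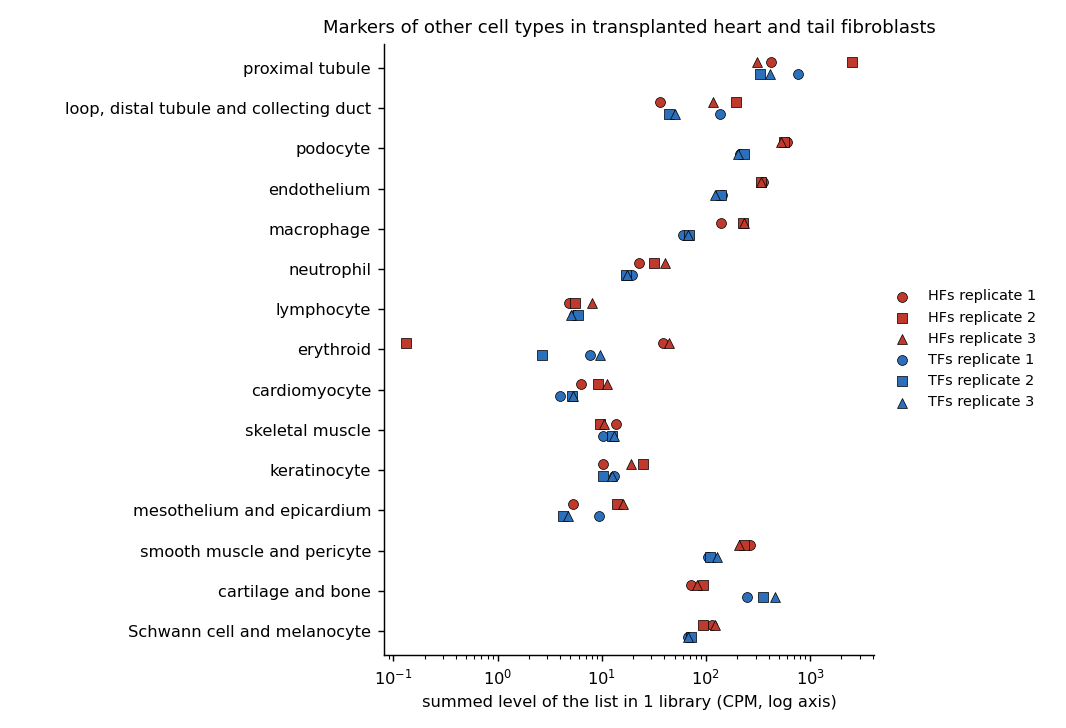
Summed level of 15 marker lists in each of the 6 libraries, in CPM on a log axis. Red symbols are HFs and blue symbols TFs, with 1 symbol a library. HFs replicate 2 lies at 2515 CPM for the proximal tubule, away from the other 5 libraries at 312 to 767 CPM, and its erythroid sum of 0.132 CPM is the lowest of the 6.

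The cardiac developmental transcription factors had the largest share of higher members among 31 lists of functions. Of 17 tested, 11 were higher and 2 lower, against 10.3% and 12.7% of all genes, and the median log2 fold change was 2.04 against −0.03 for all genes. The count of 11 was the same without any single library of the 2 groups. *Tbx20*, a T-box factor of the developing heart (chr9:24718138-24774303 in GRCm38, minus strand), was at 372, 397 and 448 CPM in HFs and 0.214, 0.0908 and 0.0848 CPM in TFs, a log2 fold change of 11.61 ± 0.36 (adjusted p = 2.74e-11). *Gata4*, which binds many cardiac promoters, was at 69.5, 62.6 and 59.3 CPM in HFs and had no count in any TFs library, so that it was at least 452-fold higher. *Tcf21*, a factor of the epicardium and of the fibroblasts that arise from it, showed the same pattern, with 67.2, 84.9 and 88.5 CPM against 0 in each TFs library, at least 568-fold higher. *Hand2*, a factor of the second heart field and of the right ventricle, was at 40.1, 37.3 and 41.7 CPM against at most 3 counts in TFs, at least 281-fold higher. In all 4 genes the groups lay far apart. *Gata6*, a relative of *Gata4*, was present in both groups, at 37.7, 33.2 and 32.3 CPM in HFs and 3.9, 2.82 and 3.9 CPM in TFs (3.28 ± 0.24, adjusted p = 1.02e-07). *Wt1*, *Bnc1* and *Tbx18*, known from the epicardium, and *Tbx5*, *Tbx2* and *Heyl* were the other higher members. *Tbx3*, a factor of the conduction system that also acts in limbs, and *Osr1*, a factor of intermediate and lateral mesoderm, were lower in HFs. *Tbx3* lost its call without HFs replicate 2 or 3 or TFs replicate 1 (log2 fold change −1.82 to −1.22 over all alternatives), and *Osr1* without HFs replicate 1 or 2 or TFs replicate 3 (−1.03 to −0.64). Markers of mesothelium and epicardium summed to 5.35 to 16.1 CPM in HFs and 4.22 to 9.31 CPM in TFs, and had been at 221 to 232 CPM in HFc. *Upk3b*, which marks mesothelial cells, was at 0.481, 1.28 and 2.16 CPM in HFs, 0 in each TFs library and a mean of 109.8 CPM in HFc.

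The *Hox* genes ran the other way. Of 38 *Hox* genes in the deposited data 34 had enough counts to test, and 28 of them were lower in HFs, 1 was higher and 5 did not pass the threshold. All 9 tested genes of cluster b and all 9 of cluster c were lower, as were 9 of 11 in cluster a. Cluster d differed, with 1 gene higher, 1 lower and 3 without a call among 5 tested. By position, 9 of 12 members of paralog groups 1 to 5 were lower (median log2 fold change −2.66, or −2.26 with members at the floor set to their bound), 7 of 8 of groups 6 to 8 (−3.39), 8 of 10 of groups 9 to 11 (−3.75) and all 4 tested of groups 12 and 13 (−10.46, or −5.92 with bounds). *Hoxb13*, the last gene of its cluster (chr11:96194316-96197447), which marks the tail end of the body axis, had no count in HFs and 30.4, 30.5 and 35.2 CPM in TFs, at least 225-fold lower in HFs. *Hoxa13* and *Hoxc12*, at the back of the other clusters, were also at 0 in HFs, against 6.47, 8.4 and 8.05 CPM and 5.56, 5.9 and 7.5 CPM in TFs. *Hoxb9* was at 0.0601, 0.264 and 0.759 CPM in HFs and 32.1, 27 and 26.4 CPM in TFs (−6.13 ± 0.41, adjusted p = 5.19e-08), and *Hoxc10*, which acts in hindlimb and lumbar levels, at 0.24, 0.705 and 0.19 CPM and 18.8, 17.4 and 17.2 CPM. The groups did not overlap in any of these genes. Genes from the front of the clusters were lower as well, such as *Hoxb5* at 0.481, 0.0881 and 0.342 CPM in HFs and 6.2, 7.77 and 8.73 CPM in TFs. *Hoxd8* was the exception, at 4.69, 6.65 and 5.77 CPM in HFs and 1.34, 0.5 and 0.721 CPM in TFs (2.75 ± 0.51, adjusted p = 0.00109).

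**Figure D2:**
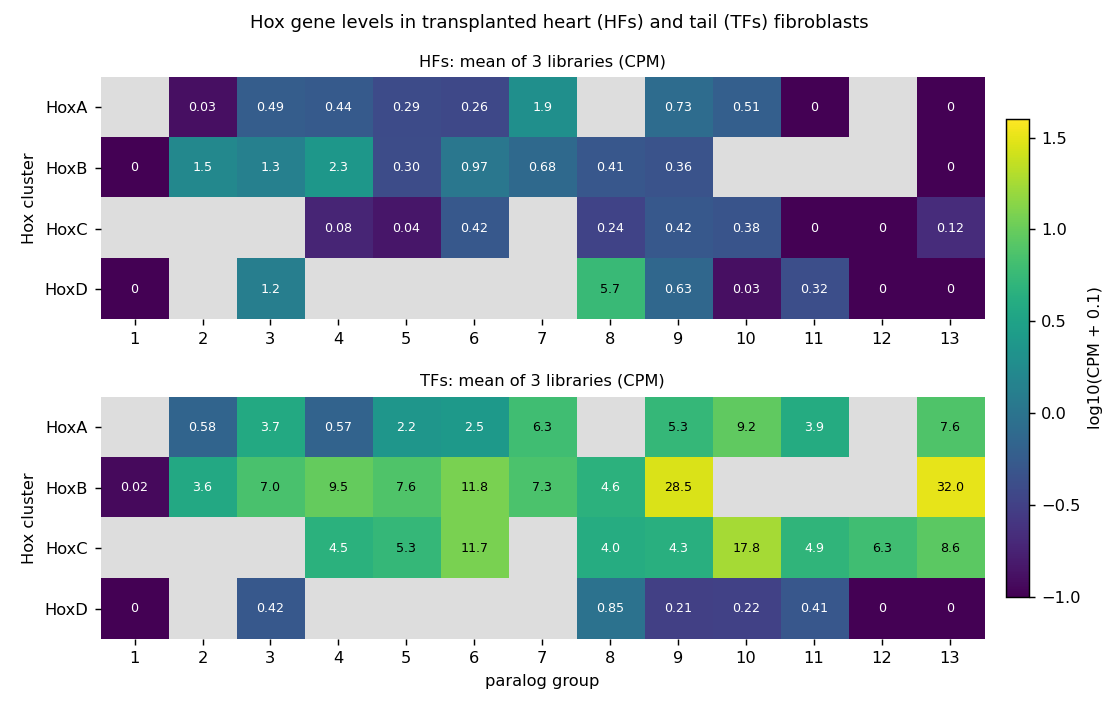
Mean level of the *Hox* genes shown, over 3 libraries, by cluster (rows) and paralog group (columns), in HFs (upper panel) and TFs (lower panel). Numbers in the cells are CPM, colours their log10 after adding 0.1, and grey marks positions without a value shown. The back of clusters a, b and c is at or near 0 in HFs, and *Hoxb13* reaches 32 CPM in TFs, and *Hoxd8* is the only cell that is clearly brighter in HFs.

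Other positional factors divided between the groups. Of 26 limb and dermal factors tested, 14 were lower and 8 higher in HFs. *En1*, which marks a lineage of dorsal skin fibroblasts, was at 2.34, 1.06 and 1.82 CPM in HFs and 24.6, 26.5 and 24 CPM in TFs (−3.86 ± 0.27, adjusted p = 7.86e-08), and *Zic1* at 1.08, 0.749 and 1.02 CPM and 14.9, 20.2 and 20.1 CPM. *Tbx4*, the T-box factor of the hindlimb and lung, was at 0.661, 0.396 and 0.683 CPM in HFs and 7.49, 7.95 and 8.48 CPM in TFs. These 3 genes were several-fold apart with no overlap. Higher in HFs were *Sox9*, a factor of cartilage and of heart valve cells, at 171, 191 and 216 CPM against 40.3, 29 and 32.7 CPM (2.50 ± 0.30, adjusted p = 1.89e-05), and *Shox2*, a factor of the sinus node and of limbs, at 10.9, 12.9 and 10.3 CPM against 2.09, 1.09 and 1.95 CPM. The *Hox* cofactor *Meis2* was also higher in HFs, by 1.15 ± 0.14 on the log2 scale.

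Outside the transcription factors, the largest rises in HFs included secreted and membrane proteins. *Clca3a1*, of a family of calcium-activated chloride channel regulators, was at 271, 357 and 868 CPM in HFs and 2.89, 4.27 and 3.43 CPM in TFs (7.14 ± 0.52, adjusted p = 1.06e-07), and its paralog *Clca3a2* at 36, 42.6 and 55.6 CPM against at most 3 counts. Reads of such near-identical copies may have been divided between them by the counting. *Adamtsl2*, a binding partner of fibrillin in the matrix, was at 52.4, 126 and 137 CPM in HFs and 0.214, 0.318 and 0.593 CPM in TFs (8.07 ± 0.65, adjusted p = 3.06e-07). *Pdlim3*, a protein of muscle Z-discs, was at 23.9, 33.9 and 28.3 CPM against at most 3 counts, at least 203-fold higher, and *Art4*, a mono-ADP-ribosyltransferase, at 16.9, 23.2 and 18 CPM, at least 137-fold higher. *Selp* (P-selectin, an adhesion molecule for leukocytes) was at 6.25, 13.9 and 17.2 CPM in HFs and 0.374, 0.182 and 0.17 CPM in TFs, and *Tnfrsf9*, a costimulatory receptor, at 12.6, 22.3 and 31.8 CPM and 1.07, 0.136 and 0.17 CPM. Among abundant genes, *Cdh2* (N-cadherin) was at 467, 449 and 399 CPM in HFs and 78.7, 51.6 and 50.1 CPM in TFs (2.87 ± 0.17, adjusted p = 1.5e-08). *Heg1*, a receptor needed for heart and vessel formation, was at 886, 854 and 1017 CPM against 129, 129.6 and 130 CPM. *Thsd7a* and *Tenm3*, membrane proteins of cell adhesion and guidance, rose by 2.89 ± 0.11 and 2.92 ± 0.34. *Klhl6* completed the 12 largest rises, with 17.2, 15.2 and 15.7 CPM in HFs and 0.0535, 0.545 and 0.0848 CPM in TFs.

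The largest falls included several secreted matrix proteins. *Thbs4* (thrombospondin 4, a protein of tendon matrix, chr13:92751590-92794818) was at 4.99, 2.78 and 1.52 CPM in HFs and 6327, 5720.2 and 6429 CPM in TFs, a log2 fold change of −11.00 ± 0.65 (adjusted p = 6.63e-08). *Cilp*, a protein of cartilage intermediate layers, was at 31.8, 47.9 and 11.6 CPM and 1006, 1782 and 2246 CPM (−5.79 ± 1.04). *Comp*, which organises collagen in cartilage and tendon, was at 13.9, 19.4 and 25.4 CPM and 170.2, 275 and 384 CPM (−3.81 ± 0.33). In each of these genes the lowest TFs library was several-fold above the highest HFs library. The list of cartilage and bone markers was split, with *Comp*, *Col2a1* and *Runx2* lower and *Acan* and *Alpl* higher among 9 tested, and a median log2 fold change of 1.26. *Acan* (aggrecan, a proteoglycan of cartilage) was at 3.3, 3.88 and 1.25 CPM in HFs and 0.16, 0.182 and 0.551 CPM in TFs (3.19 ± 0.82, adjusted p = 0.012), a call that was lost without TFs replicate 1 or 2 (2.91 to 3.99 over all alternatives). *Alpl* (alkaline phosphatase) overlapped between the groups, at 6.07, 22 and 15.1 CPM and 7.86, 2.23 and 2.37 CPM, and lost its call without HFs replicate 2 or TFs replicate 2 or 3 and when only the 2 groups were fitted (1.40 to 2.64). The count of higher members ran from 0, without TFs replicate 2, to 3, with DESeq2. *Angptl7*, a secreted angiopoietin-like protein, was at 0.361, 1.5 and 0.228 CPM in HFs and 93.8, 105 and 117 CPM in TFs. *Il1rl1*, the receptor of interleukin 33, was at 2.16, 0.837 and 0.645 CPM and 159, 133 and 109 CPM (−6.88 ± 0.31, adjusted p = 8.34e-10), and its ligand *Il33* moved the opposite way, at 239, 177 and 157 CPM in HFs and 24.3, 28.2 and 35.2 CPM in TFs (2.71 ± 0.38, adjusted p = 0.0001). *Crabp1*, which binds retinoic acid, was at 0.421, 0.132 and 0.0379 CPM and 28.1, 33.2 and 34.6 CPM. *Kcnf1* and *Ryr3*, a potassium channel subunit and a calcium release channel, were at 0, 0 and 0.19 CPM and 0.12, 0 and 0 CPM in HFs, against 46.9, 70.5 and 54.7 CPM and 11.1, 33.4 and 47.4 CPM in TFs. *Stmn2*, a tubulin-binding protein of neurons, was at no more than 3 counts in HFs and at 8.72, 11.5 and 11.9 CPM in TFs, at least 75.4-fold lower. *Egfl6*, *Adam33* and *Ccl20* were the remaining largest falls, and the abundant falls also held *Zfhx4*, *Cpxm2*, *Abi3bp*, *Steap4*, *Spp1* and *Nrp2*.

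**Figure D3:**
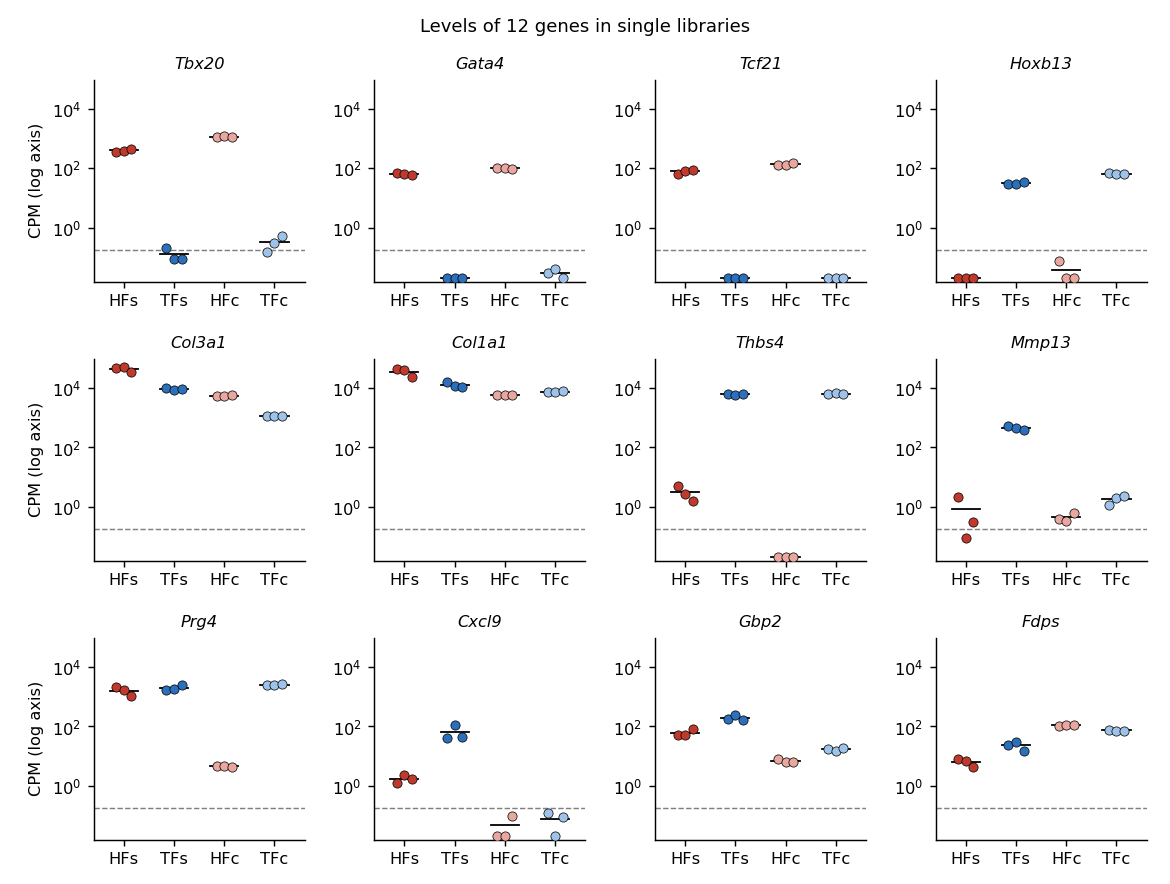
Level of 12 genes in single libraries of HFs, TFs, HFc and TFc, in CPM on a log axis, with a bar at each group mean. The dashed line is the largest floor of 3 counts, 0.18 CPM, and values under 0.02 CPM are drawn at 0.02. *Tbx20*, *Gata4* and *Tcf21* are on the heart side in both settings and *Hoxb13* on the tail side, whereas *Mmp13* and *Cxcl9* rise above 10 CPM in TFs alone and *Prg4* overlaps between HFs and TFs.

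Of 11 fibrillar collagens tested, 6 were higher in HFs, 2 were lower and 3 had no call, with a median log2 fold change of 1.1. The count of higher members was 4 without HFs replicate 1 or 2 or TFs replicate 2 or 3. Types I and III, the main load-bearing collagens of scar and stroma, were among the higher members. *Col3a1* (chr1:45311538-45349706) was at 49272, 51660.2 and 33971 CPM in HFs and 10456, 8773 and 9714 CPM in TFs (2.22 ± 0.46, adjusted p = 0.00242). *Col1a1* was at 45869, 40058 and 23395 CPM in HFs and 15975, 12203 and 11270.5 CPM in TFs (1.47 ± 0.37, adjusted p = 0.00911), and the lowest value of HFs, in replicate 3, was still above the highest of TFs. *Col1a1*, *Col1a2* and *Col3a1* together took 10.9%, 10.3% and 6.4% of all counts in HFs and 3.72%, 3.09% and 3.13% in TFs. *Col1a2*, the partner chain of *Col1a1*, rose by 1.23 ± 0.35 with an adjusted p of 0.0188, and lost this call without HFs replicate 1 or 2 or TFs replicate 2 or 3 (log2 fold change 1.00 to 1.49 over all alternatives). *Col11a1*, a minor fibril collagen that sets fibril diameter, rose by 1.79 ± 0.38. Lower in HFs were *Col5a3*, at 379, 282 and 242 CPM against 1106, 675 and 563 CPM (−1.38 ± 0.27, adjusted p = 0.00166), and *Col2a1*, the collagen of cartilage, whose groups overlapped and whose call was lost when only the 2 groups were fitted. *Fn1* (fibronectin), on which collagen fibrils assemble, was at 36197, 35223 and 23293 CPM in HFs and 10648, 12516 and 13819.6 CPM in TFs (1.36 ± 0.16, adjusted p = 2.14e-05). Among other fibroblast markers, *Thy1* (CD90) was lower in HFs, at 44.5, 31.9 and 24.9 CPM against 195, 133 and 123 CPM (−2.15 ± 0.28, adjusted p = 3.76e-05), and so was *S100a4*, a calcium-binding protein, at 26.3, 18.7 and 30.8 CPM against 95.2, 104 and 90.3 CPM. *Pdgfra*, the common receptor of fibroblasts, overlapped between the groups, at 433, 486 and 655 CPM in HFs and 483, 541 and 508 CPM in TFs.

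Basement membrane genes, whose products form the sheet under epithelia and around muscle cells, showed 12 of 24 members higher in HFs and 1 lower, with a median of 0.96. The type IV collagen chains form its scaffold. *Col4a1* was at 4680.1, 5005 and 5849.9 CPM in HFs and 1836, 1704 and 1655 CPM in TFs (1.58 ± 0.14, adjusted p = 7.88e-07), and its partner *Col4a2* at 3097, 3625 and 3895 CPM and 1174, 1075 and 1067 CPM (1.68 ± 0.16). *Col4a5* was at 403, 468 and 476 CPM and 32.6, 45.8 and 41.3 CPM (3.49 ± 0.17, adjusted p = 1.64e-09), and *Col4a6*, its neighbour on chromosome X, at 36.5, 43.6 and 45.8 CPM and 0.749, 1.45 and 1.23 CPM (5.18 ± 0.34, adjusted p = 3.94e-08). These 4 chains showed no overlap. The laminin chains *Lama1*, *Lama2*, *Lamb1* and *Lamc1* were also higher, by 3.50 ± 0.42, 1.61 ± 0.20, 0.85 ± 0.09 and 1.36 ± 0.16. The lower member, *Col18a1*, lost its call when any of the 6 libraries was left out (−1.26 to −0.94 over all alternatives). In the elastic fibre list 5 of 19 members were higher and 5 lower. *Mfap4*, a microfibril protein, was at 199, 255 and 140 CPM in HFs and 5.08, 12.9 and 18.6 CPM in TFs (4.01 ± 0.76, adjusted p = 0.00128), and *Ltbp4*, which anchors latent TGF-beta, at 286, 259.6 and 176 CPM and 26, 32.4 and 45.7 CPM. Its relatives *Ltbp1* and *Ltbp2* were lower in HFs, with log2 fold changes of −1.58 ± 0.20 and −1.35 ± 0.29, as was *Fbn2* (fibrillin 2) at 61.7, 53.6 and 34.4 CPM against 251, 286 and 246 CPM. Of 12 small leucine-rich proteoglycans *Bgn* was called higher and *Kera* lower and 10 had no call, while 3 were higher and 3 lower without KFs replicate 3, and 2 higher and 4 lower when only the 2 groups were fitted. *Bgn* lost its call without each library other than HFs replicate 3 (0.69 to 0.98 over all alternatives).

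Proteins that remodel or signal from the matrix were divided. Of 24 matrix proteases and inhibitors tested, 7 were higher and 3 lower in HFs. Over all genes 10.3% were higher and 12.7% lower, so that the lower count was near the share of all genes. The 3 lower members were *Mmp13*, *Mmp10* and *Mmp3*, which cleave collagens and other matrix proteins. *Mmp13* was at 2.1, 0.0881 and 0.304 CPM in HFs and 533, 459.6 and 392 CPM in TFs (−9.32 ± 0.72, adjusted p = 2e-07). *Mmp10* was at 0.661, 0.308 and 0.0759 CPM and 33.6, 21.3 and 17.6 CPM (−6.21 ± 0.74, adjusted p = 1.9e-05). *Mmp3* was at 305, 787 and 1166 CPM and 5342, 3154 and 3231 CPM, with an adjusted p of 0.0498, and its call was lost when any of the 6 libraries was left out (−2.81 to −1.96 over all alternatives). The inhibitor *Timp3*, which binds to the matrix, was higher in HFs, at 1832, 2071 and 1213 CPM against 289, 306 and 266 CPM (2.57 ± 0.16, adjusted p = 2.67e-08). *Adamts2*, which trims procollagen, was at 776, 830 and 784 CPM in HFs and 205, 180.2 and 203 CPM in TFs (2.02 ± 0.37). Without KFs replicate 3 the count of higher members was 12. Of 17 matricellular genes 4 were higher and 6 lower, and 2 were higher without HFs replicate 2 or TFs replicate 2. *Ccn2* (connective tissue growth factor) was at 272, 314 and 222 CPM in HFs and 113, 49.4 and 72.1 CPM in TFs (1.78 ± 0.25, adjusted p = 7.58e-05), and *Sparc*, a collagen chaperone, at 7487, 6916 and 5029 CPM and 2949, 2868 and 2482 CPM. *Spp1* (osteopontin) went the other way, at 343, 285 and 242 CPM in HFs and 2044, 2151 and 2003 CPM in TFs (−2.83 ± 0.42, adjusted p = 0.000161).

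Contractile genes, which mark fibroblasts that have become myofibroblasts, had 6 of 16 members higher and 1 lower in HFs. Over all genes 10.3% were higher and 12.7% lower, so that the lower count was below the share of all genes. The higher count was 4 without HFs replicate 1 or 2 or TFs replicate 2 or 3, and with the proximal tubule covariate. *Acta2*, the smooth muscle actin, was at 782, 565 and 376 CPM in HFs and 333, 142 and 133 CPM in TFs (1.50 ± 0.33, adjusted p = 0.00383). *Tagln*, an actin-bundling protein, was at 251, 185 and 108 CPM and 77.8, 43.1 and 43.9 CPM (1.73 ± 0.29, adjusted p = 0.000448). In both genes replicate 1 was the highest of its group, and HFs replicate 3 came closest to the TFs. *Myl9*, the myosin light chain, rose by 1.36 ± 0.32, whereas *Tpm1*, a tropomyosin made in most cells, fell, at 729.8, 615 and 451 CPM against 1305, 1084 and 989 CPM (−0.91 ± 0.15, adjusted p = 0.000385). Smooth muscle and pericyte markers summed to 207 to 265 CPM in HFs and 104 to 127 CPM in TFs, with *Notch3*, a receptor of mural cells, at 192, 171 and 164 CPM against 44, 50 and 57.7 CPM, and their part in the contractile genes was not tested.

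BMP signals act through secreted ligands that are held back by antagonists outside the cell and by Smad6 and Smad7 inside it. Of 23 BMP and Id genes tested, 7 were higher and 7 lower in HFs and 9 had no call. The median log2 fold change was 0.02, so that the list had no common direction. Antagonists of the ligands were among the lower members, with *Grem1* at 0.901, 0.705 and 1.59 CPM in HFs and 23.7, 14.9 and 17.3 CPM in TFs (−4.08 ± 0.52, adjusted p = 3.31e-05), *Chrdl1* at 1.14, 1.54 and 1.75 CPM and 19.6, 35.3 and 35.8 CPM, and *Nog* and *Chrd* also past the threshold. *Nog* kept its call without HFs replicate 1 alone (−2.08 to −1.30 over all alternatives), and *Chrd* lost it without HFs replicate 1 or 2 or TFs replicate 3 (−1.38 to −0.95). *Fstl3* and *Fstl1*, which bind activins and BMPs, were higher, and both lost their call without TFs replicate 2 or 3, *Fstl3* also without HFs replicate 3 (0.65 to 1.12) and *Fstl1* without HFs replicate 1 or 2 or TFs replicate 1 and with library size alone (0.47 to 0.82). The ligand *Gdf6*, known from joint formation, was higher, at 43.7, 52.4 and 59.7 CPM against 3.21, 1.36 and 1.95 CPM (4.60 ± 0.31, adjusted p = 5.6e-08), and the ligand *Bmp2* lower, at 0.541, 0.925 and 0.569 CPM against 3.85, 5.09 and 6.7 CPM. *Id3*, a target of the pathway, was at 63.6, 56.6 and 64.4 CPM in HFs and 15.8, 25.6 and 16.1 CPM in TFs (1.68 ± 0.24, adjusted p = 8.73e-05). *Smad6* and *Smad7*, also targets, rose by 1.16 ± 0.15 and 1.22 ± 0.17. Without TFs replicate 3 the count of lower members was 4.

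Wnt ligands bind Frizzled receptors, R-spondins strengthen the signal, and secreted proteins such as Frzb and Dkk2 weaken it. Of 26 members tested 12 were lower and 4 higher in HFs, with a median of −0.8, and the lower count was 7 without HFs replicate 3 or TFs replicate 3. The ligand *Wnt16* was at 0.12, 0.176 and 0.228 CPM in HFs and 5.4, 8.45 and 7.25 CPM in TFs (−5.25 ± 0.48, adjusted p = 1.09e-06), and 7 further ligands were called, *Wnt2*, *Wnt2b*, *Wnt5a*, *Wnt5b*, *Wnt7b* and *Wnt9a* as lower and *Wnt11* as higher. The calls of *Wnt2* (without HFs replicate 2 or 3 or TFs replicate 2 or 3), *Wnt5a* (when any of the 6 libraries was left out) and *Wnt9a* (without HFs replicate 1 or 3 or TFs replicate 1 or 3) were lost, with log2 fold changes over all alternatives of −2.85 to −1.59, −0.85 to −0.58 and −1.41 to −0.80. The R-spondin *Rspo3* was at 4.09, 4.41 and 3.64 CPM in HFs and 72.2, 65.5 and 57.5 CPM in TFs (−4.01 ± 0.44, adjusted p = 8.19e-06), and *Rspo2* at 1.02, 0.925 and 1.21 CPM and 13.5, 19.3 and 19.3 CPM. The secreted inhibitors moved in opposite directions. *Frzb* was at 129, 139 and 125 CPM in HFs and 5.35, 5.36 and 5.34 CPM in TFs (4.62 ± 0.28, adjusted p = 2.19e-08), and *Dkk2* at 14.9, 6.17 and 4.48 CPM and 38.4, 95.9 and 114 CPM (−3.31 ± 0.40, adjusted p = 2.38e-05). *Nkd2* and *Apcdd1*, inhibitors induced by the pathway, were higher in HFs, by 2.72 ± 0.37 and 2.61 ± 0.25, and *Axin2*, its common readout, was lower by a call that was lost when any HFs library or TFs replicate 3 was left out (−1.95 to −1.08).

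Among other growth factors and their binding proteins, 5 of 34 growth factors were higher and 9 lower in HFs. Since 10.3% of all genes were higher and 12.7% lower, the higher count was near the share of all genes. This higher count was 5 to 7 when a library of HFs or TFs was left out and 10 without KFs replicate 3. *Bdnf*, a neurotrophin, was at 22.2, 26.9 and 35.1 CPM in HFs and 13.2, 9.36 and 9.71 CPM in TFs (1.39 ± 0.25, adjusted p = 0.000754). *Tgfb2* was higher in HFs by 1.31 ± 0.14. *Pdgfc* and *Pdgfd*, ligands of the PDGF receptors, were lower, with *Pdgfc* at 10.8, 5.77 and 3.91 CPM against 45.9, 37.6 and 41.1 CPM (−2.63 ± 0.26, adjusted p = 2.63e-06). *Angpt1*, which stabilises vessels, was at 23, 28.9 and 33.4 CPM and 112, 99 and 97.2 CPM. Of 6 IGF binding proteins, *Igfbp7* was higher, at 960.1, 1049 and 895 CPM against 252, 235 and 247 CPM (1.98 ± 0.07, adjusted p = 1.66e-10), and 4 were lower, led by *Igfbp6* at 5.65, 4.41 and 3.49 CPM against 75.7, 115 and 106 CPM (−4.47 ± 0.30, adjusted p = 5.3e-08). The lower count was 2 without HFs replicate 1. Axon guidance genes, which also steer cell migration, had 8 of 43 members higher and 11 lower. The repellent *Sema3a* was at 1.02, 2.25 and 2.13 CPM in HFs and 85.1, 131 and 112 CPM in TFs (−5.88 ± 0.24, adjusted p = 4.38e-10), and its relative *Sema3d* at 60.6, 84.8 and 70.4 CPM and 6.37, 7.81 and 11.5 CPM (3.06 ± 0.30, adjusted p = 2.17e-06). The receptor *Epha3* was at 7.75, 3.79 and 1.78 CPM and 116, 150.2 and 159 CPM, and *Nrp2*, a semaphorin co-receptor, at 52.4, 42 and 74.6 CPM and 326, 399.5 and 344 CPM. Without KFs replicate 3 the lower count was 18.

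**Figure D4:**
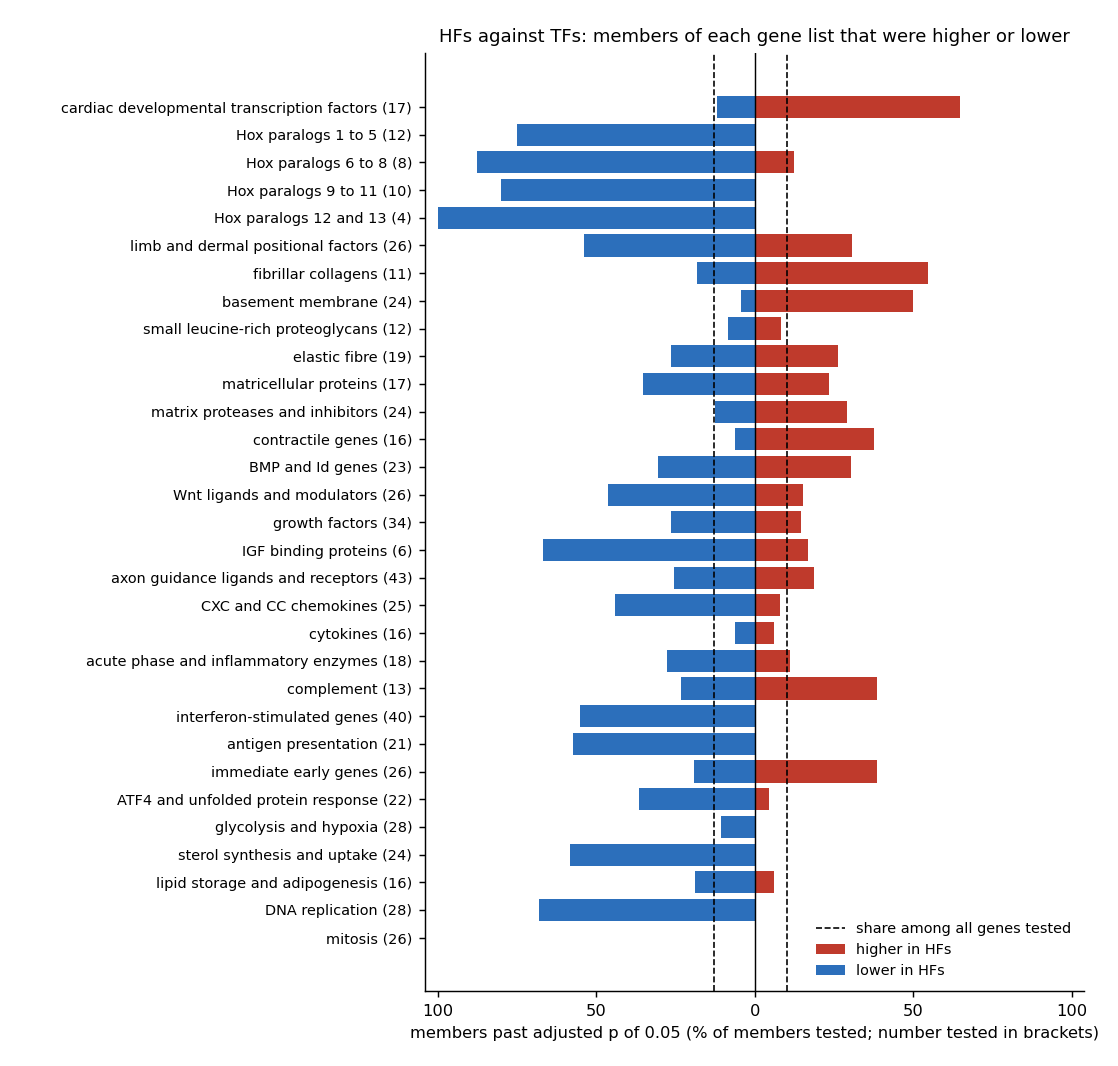
Share of the tested members of 31 gene lists that were higher in HFs (red, to the right) or lower in HFs (blue, to the left) at an adjusted p of 0.05. Dashed lines give the shares over all genes tested, 10.3% higher and 12.7% lower. The cardiac factors extend furthest to the right and the *Hox* lists furthest to the left, and the interferon-stimulated, antigen presentation, sterol and DNA replication lists have members on the lower side only.

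Chemokines were lower in HFs more often than higher. Of 25 chemokines tested 11 were lower and 2 higher, with a median of −0.98, or −0.46 with members at the floor set to their bound. The lower count was 7 without HFs replicate 2, and the higher count 4 without KFs replicate 3. *Cxcl9*, an interferon-induced attractant of T cells, was at 1.26, 2.33 and 1.67 CPM in HFs and 41.7, 117 and 44.5 CPM in TFs (−5.25 ± 0.69, adjusted p = 5.06e-05). *Ccl2*, which draws monocytes, was at 59.2, 45.2 and 112 CPM and 337, 441 and 259 CPM (−2.26 ± 0.27, adjusted p = 1.72e-05), *Ccl5* at 6.85, 15.4 and 30.7 CPM and 130.3, 161 and 105 CPM, and *Ccl20* at 0, 0 and 0.19 CPM and 14.1, 26.2 and 8.31 CPM. *Cxcl14*, a chemokine of skin, was at 5.23, 8.06 and 5.43 CPM in HFs and 108, 94.8 and 81.6 CPM in TFs (−3.92 ± 0.23, adjusted p = 1.6e-08). *Cxcl16* rose by 0.52 ± 0.13, a call that was lost with library size alone. Acute phase genes were divided, with *Serpina3n* at 765, 2112 and 5090 CPM in HFs and 266, 417 and 521 CPM in TFs (2.72 ± 0.65, adjusted p = 0.00631) and *Hp* (haptoglobin) at 184, 231 and 617 CPM and 90.1, 36 and 41.6 CPM, both highest in HFs replicate 3, and with *Ptges*, which makes prostaglandin E, lower at 13.3, 9.65 and 13.6 CPM against 56.3, 53.8 and 43 CPM (−2.06 ± 0.28). In the complement list several regulators were higher, *Cfi* by 3.56 ± 0.71, *Cd55* by 1.24 ± 0.20 and *Cd59a* by 1.56 ± 0.22. The activating components *Cfb* and *C2* were lower, *Cfb* at 89.4, 222 and 256 CPM against 1306, 830.1 and 780.1 CPM (−2.36 ± 0.58, adjusted p = 0.00809) and *C2* at 4.75, 9.03 and 11.4 CPM against 96.2, 83.3 and 94.2 CPM. Over the 13 complement genes 5 were higher and 3 lower, and 5 were lower without KFs replicate 3.

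Interferon-stimulated genes are switched on by STAT and IRF factors at a short promoter element with the letters GAAANNGAAA, the interferon-stimulated response element. All 40 members tested had a negative log2 fold change, and 22 were lower in HFs and none higher, with a median of −1.3 against −0.03 for all genes. The number that passed depended on the libraries, at 9 without HFs replicate 2 or TFs replicate 1, 12 without HFs replicate 1, 13 without HFs replicate 3 or TFs replicate 2 and 34 when only the 2 groups were fitted. *Gbp2*, a GTPase that acts on intracellular pathogens, was at 51.7, 51.1 and 80.2 CPM in HFs and 173, 242 and 162 CPM in TFs (−1.65 ± 0.30, adjusted p = 0.000797). *Irf1*, a factor that drives such genes, was at 49.4, 38 and 39.8 CPM and 70.2, 116 and 73 CPM (−1.03 ± 0.19, adjusted p = 0.0011). *Bst2* (tetherin, which holds virus particles at the cell surface) was at 10.3, 13.8 and 12.5 CPM and 49.6, 37.4 and 28.3 CPM (−1.65 ± 0.33, adjusted p = 0.00185), and *Parp14* at 76.6, 69.7 and 79.8 CPM and 271, 244 and 192 CPM. Neither group overlapped the other in these 4 genes. Antigen presentation genes moved the same way, with 12 of 21 lower and none higher (median −0.77), and 6 lower without HFs replicate 1 or TFs replicate 1. *B2m*, the light chain of class I molecules, was at 290.4, 356 and 338 CPM in HFs and 585, 512 and 402 CPM in TFs, a call that was lost without HFs replicate 1 or 3 or TFs replicate 1 or 2 (−0.82 to −0.48 over all alternatives). The immunoproteasome subunits *Psmb8* and *Psmb10* were at 20.9, 19.9 and 21.5 CPM and 9.61, 10.9 and 10.8 CPM in HFs, against 63, 59.2 and 46 CPM and 20.8, 26.5 and 21.9 CPM in TFs. In culture the interferon list had been divided, with 9 of 40 members higher and 3 lower in HFc than in TFc (median 0.58), where 20.9% and 21.0% of all genes were higher and lower.

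Promoters of 4 of these genes are shown because they hold this element. The list was not chosen by the element, yet genes of this kind are known for it. Its frequency in the list is therefore not a result about HFs and TFs. RefSeq promoter sequences (GRCm38.p6, 250 bases before to 50 after the start) were found for 29 of the 40 members. On either strand GAAANNGAAA occurred in 17 of the 29 (58.6%), against 2.98% of all 32851 promoters and 3.25% of the 11833 of tested genes. Of the 17 members with a match 9 were lower in HFs, and of the 12 without a match 8 were. A match is a description of letters and not a measured binding site. In the stretches below, 60 bases long and written 5′ to 3′ on the strand of the gene, capitals mark the element, which reads TTTCNNTTTC where it lies on the opposite strand. The windows are chr3:142620584-142620643 (plus strand) for *Gbp2*, chr11:58199496-58199555 (plus) for *Igtp*, another interferon-induced GTPase that was lower in HFs, chr8:71537563-71537622 (minus) for *Bst2* and chr19:34640765-34640824 (plus) for *Ifit1*, which blocks foreign RNA and had a log2 fold change of −1.71 ± 0.55, a call that was lost when any of the 6 libraries was left out (−1.92 to −1.43). The first base of the first match lay 59, 34, 130 and 104 bases before the start of transcription in these genes.
Gbp2: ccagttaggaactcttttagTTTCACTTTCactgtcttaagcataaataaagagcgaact
Igtp: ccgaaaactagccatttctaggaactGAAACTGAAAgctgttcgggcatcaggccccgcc
Bst2: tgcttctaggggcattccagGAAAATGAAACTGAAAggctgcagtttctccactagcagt
Ifit1: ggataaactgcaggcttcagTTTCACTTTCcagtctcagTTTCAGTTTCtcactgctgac

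Sterol synthesis genes, which SREBP factors switch on when cell cholesterol is low, were negative in all 24 members. Of these 14 were lower in HFs and none higher, with a median of −0.85, and 8 were lower without HFs replicate 3. *Fdps*, which makes farnesyl diphosphate, was at 7.81, 6.87 and 4.4 CPM in HFs and 24.3, 30.5 and 15.2 CPM in TFs (−1.89 ± 0.28, adjusted p = 0.00018). *Sqle*, a step later in the pathway, was at 9.01, 7.58 and 5.31 CPM and 27.3, 33.1 and 17.7 CPM (−1.84 ± 0.28, adjusted p = 0.000181), and *Lss*, which closes the sterol ring, at 10, 8.59 and 8.39 CPM and 19.1, 23.8 and 17.3 CPM (−1.16 ± 0.15, adjusted p = 4.56e-05). In each of them the highest HFs library was below the lowest TFs library. In culture 6 of the 24 had been higher and 2 lower in HFc (median 0.4), where 20.9% and 21.0% of all genes were higher and lower, so that the higher count was near the share of all genes. The sterol regulatory element TCACNCCAC was found in 1 of 16 promoters of the list, against 1.05% of all promoters and 1.26% of those of tested genes, in *Hmgcs1*, the first committed step, which had a log2 fold change of −0.79 ± 0.24 (adjusted p = 0.0265). The groups overlapped in this gene, and its call was lost without HFs replicate 1 or 3 or TFs replicate 1 or 2 (log2 fold change −1 to −0.58 over all alternatives). Its window chr13:119690194-119690253 (plus strand) has the element in capitals.
Hmgcs1: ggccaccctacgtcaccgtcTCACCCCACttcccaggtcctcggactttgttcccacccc

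DNA replication genes were lower in HFs in 19 of 28 members and higher in none, with a median of −0.94. The count was 10 without HFs replicate 2 or TFs replicate 1 and 12 when only the 2 groups were fitted. The *Mcm* genes code for the helicase that opens replication origins. *Mcm6* was at 31.2, 20.7 and 27.9 CPM in HFs and 74, 56.1 and 45.6 CPM in TFs (−1.14 ± 0.20, adjusted p = 0.000799), *Mcm4* at 28.2, 16.9 and 25.7 CPM and 59.6, 52.1 and 42.8 CPM (−1.13 ± 0.21, adjusted p = 0.000896) and *Mcm2* at 14.3, 8.11 and 11.2 CPM and 33.8, 22.4 and 17.9 CPM (−1.14 ± 0.24, adjusted p = 0.00287). *Cdt1*, which loads this helicase, was at 2.4, 3.04 and 3.38 CPM in HFs and 8.72, 6.22 and 4.75 CPM in TFs. TFs replicate 1 was the highest library in all 4 genes, and the groups did not overlap. Mitosis genes did not follow to the threshold. All 26 had a negative log2 fold change (median −0.47), yet none passed edgeR's test at an adjusted p of 0.05, 6 were below an unadjusted p of 0.05 and DESeq2 called 1. Without TFs replicate 1 the median was 0.03. With library size alone 8 were lower, and 6 were lower without TFs replicate 3 and 4 without KFs replicate 3. In culture 18 of the 26 mitosis genes and 6 of the 28 replication genes had been higher in HFc than in TFc, and 0 and 1 lower, against 20.9% and 21.0% of all genes, and the 6 replication genes were near that share. The E2F element, which links these genes to the cell cycle, was searched in its forms TTTCCCGC and TTTGGCGC. Each form occurred in 3 of 22 promoters of the replication list, against 0.895% and 0.417% of all promoters and 1.85% and 0.837% of the promoters of tested genes. The stretches of *Mcm6* (chr1:128359776-128359835, minus strand) and *Mcm5* (chr8:75109340-75109399, plus strand) hold the second form in capitals, as GCGCCAAA where it lies on the opposite strand.
Mcm6: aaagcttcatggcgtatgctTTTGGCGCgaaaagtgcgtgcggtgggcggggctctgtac
Mcm5: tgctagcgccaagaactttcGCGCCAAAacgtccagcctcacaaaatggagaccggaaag

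**Figure D5:**
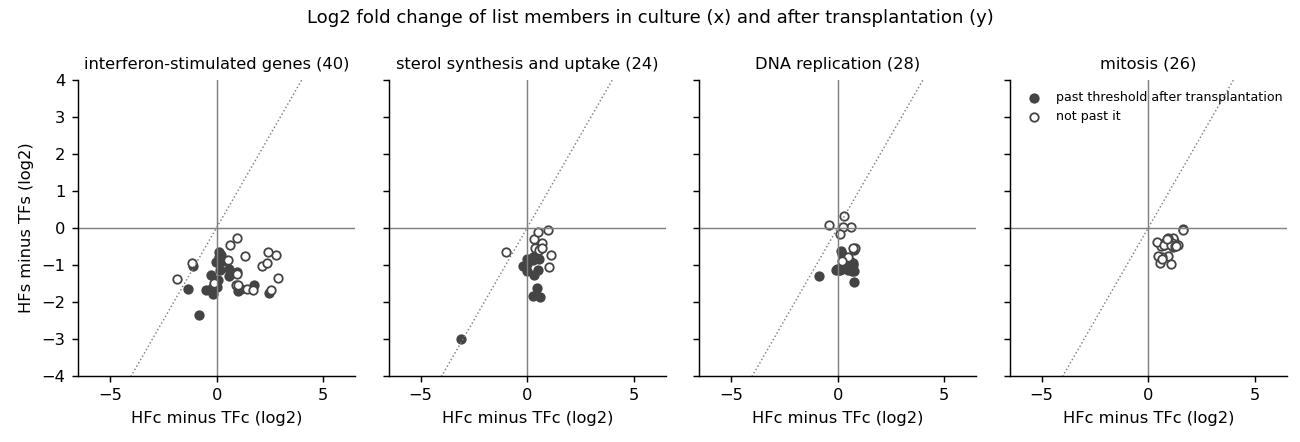
Log2 fold change of heart over tail fibroblasts in culture (horizontal, HFc minus TFc) and after transplantation (vertical, HFs minus TFs) for the members of 4 lists. Filled points passed the test after transplantation, open points did not, and the dotted line marks equal values. Nearly every point lies below 0 on the vertical axis, with medians of −1.3, −0.85, −0.94 and −0.47 from left to right, while the medians on the horizontal axis are 0.58, 0.4, 0.28 and 0.96.

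In the list of ATF4 and unfolded protein response genes 8 of 22 were lower and 1 higher, and 5 were lower without HFs replicate 2. *Hspa5* (BiP), the main chaperone of the endoplasmic reticulum, was at 547, 541 and 624 CPM in HFs and 1143, 1049 and 954 CPM in TFs (−0.88 ± 0.14, adjusted p = 0.000254), and *Phgdh*, the entry to serine synthesis, at 7.51, 8.72 and 7.7 CPM and 16.2, 13.2 and 12.9 CPM (−0.82 ± 0.11, adjusted p = 6.38e-05). Of 28 glycolysis and hypoxia genes 3 were lower and none higher, below the 12.7% of all genes that were lower, and this number was 1 when only the 2 groups were fitted or without HFs replicate 1 or 2 or TFs replicate 1, 6 without HFs replicate 3, 10 without KFs replicate 3 and 13 with library size alone. *Car9*, a carbonic anhydrase induced by low oxygen, was the member with a call in every fit, at 0.12, 0.617 and 0.797 CPM in HFs and 38.4, 10.9 and 22.6 CPM in TFs (−5.47 ± 0.64, adjusted p = 1.61e-05). Immediate early genes, which respond within minutes to growth signals and to cell dissociation, had 10 of 26 members higher and 5 lower, or 8 lower with library size alone. *Fosb* was at 153, 123 and 171 CPM in HFs and 81.1, 62.1 and 68.5 CPM in TFs (1.08 ± 0.21, adjusted p = 0.00157) and *Egr2* at 45.8, 39.3 and 22.7 CPM and 21.2, 16.8 and 10.4 CPM (1.15 ± 0.26, adjusted p = 0.00444). The nuclear receptor *Nr4a3* was at 62.7, 42.9 and 35.3 CPM and 13.8, 13.7 and 4.54 CPM. *Myc* was lower, at 19.3, 14.1 and 20.2 CPM against 40, 32.2 and 26.8 CPM (−0.89 ± 0.14, adjusted p = 0.000225).

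The same cell types had also been compared in culture, where 6943 genes differed between HFc and TFc. Both comparisons called 2440 genes, of which 2137 had the same direction, 95 were higher in HFs and lower in HFc, and 208 were lower in HFs and higher in HFc. A further 1382 genes were called after transplantation and not in culture, and for 612 of them the difference between the comparisons was itself past the threshold. That difference was called for 3776 genes. The log2 fold change of heart over tail was higher after transplantation than in culture in 1675 (10.1%) and lower in 2101 (12.7%). These counts go by sign, so that a positive value can be a narrower gap where the tail side was higher. The difference was called for 3 of the 17 cardiac factors, all in the negative direction. Among *Hox* genes it was called for 8 in the positive and 1 in the negative direction. *Hoxc10*, 1 of the 8, had means of 0.378 CPM in HFs and 17.8 CPM in TFs, and of 0.0327 CPM in HFc and 26.8 CPM in TFc, so that HFc was under the floor and the size of its difference depends on the prior count. *Prg4* (lubricin, which coats tendon and joint surfaces) was at 2108, 1654 and 1036 CPM in HFs and 1764, 1787 and 2571 CPM in TFs and overlapped between the groups, whereas in culture it had means of 4.58 CPM in HFc and 2568 CPM in TFc. *F5*, coagulation factor V, changed sides, at 21.8, 21.6 and 13.6 CPM in HFs and 5.62, 4.45 and 5.43 CPM in TFs, with means of 0.155 CPM in HFc and 16.5 CPM in TFc. *Mmp13* was further apart after transplantation than in culture, where it had means of 0.459 CPM in HFc and 1.8 CPM in TFc.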

How the data were processed

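RNA of 18 libraries was sequenced as single reads from SMARTer total RNA libraries. Per the labels' processing notes and the study's methods, the authors aligned reads with Bowtie and estimated gene levels with RSEM. The notes name mm9 and the methods GRCm38. The deposited values were expected counts per Ensembl gene, all whole numbers, with rounding not stated. Names and coordinates came from GENCODE mouse release 21 (GRCm38).

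Genes kept by edgeR's filterByExpr over the 18 libraries (16577) were fitted with edgeR 4.0.16 (TMM factors, glmQLFit, glmQLFTest, R 4.3.3) over all 6 groups, which share 1 estimate of the spread. HFs were tested against TFs, HFc against TFc, and the difference between these, with Benjamini-Hochberg adjustment and a threshold of 0.05. Tables and figures used Python 3.11.15. The fit was tested on simulated data.

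Genes were named as the 12 largest rises and falls (at least 10 CPM in the higher group, no overlap), the 10 largest among genes with a mean of at least 100 CPM, up to 4 a list and direction by p, the 6 largest differences from culture each way, and list members that changed sides. Other named genes were chosen after their values were seen. The members and lists were chosen with earlier results of these data known. Alternatives were DESeq2 1.42.0, other scalings and filters, thinning to 17927838 counts, left-out libraries, a replicate block, a proximal tubule covariate and stricter thresholds. Same-numbered replicates correlated at −0.0374, −0.189 and 0.000306 and were not treated as pairs. Some named genes are not reported here.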

Additional observations from a re-analysis of the deposited data

Results flagged for a closer look

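For 40 named genes the heart against tail difference after transplantation departed from that in culture by the test of the difference itself, the interaction term of the edgeR fit. Values are log2 differences of the 2 comparisons, negative where the log2 fold change of heart over tail was lower after transplantation than in culture. A change in either cell type can give such a value. Where a group of a gene had no counts, the size depends on the prior count. No explanation of these values was tested.

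Among matrix proteases and chemokines the values were −7.34 for *Mmp13* (adjusted p = 0.0011), −6.76 for *Mmp10*, −6.98 for *Ccl20* and −6.10 for *Ccl5*. Interferon-stimulated and class I genes gave −6.005 for *Ifi47* (adjusted p = 2.23e-05), −4.21 for *Zbp1*, −3.29 for *Gbp3*, −2.80 for *Bst2* and −1.77 for *B2m*. Replication genes gave −1.93 for *Uhrf1*, −1.71 for *Mcm3*, −1.65 for *Gins2* and −1.38 for *Pola1*. Amino acid supply and lipid synthesis gave −2.004 for *Slc7a5*, −1.77 for *Slc7a11*, −1.59 for *Phgdh* (adjusted p = 5.47e-06), −1.39 for *Mvk* and −1.04 for *Fasn*. The other negative values were −5.94 for *Heyl*, −4.18 for *Col2a1*, −4.03 for *Wnt9a*, −2.52 for *Col18a1*, −2.05 for *Efnb2* and −1.30 for *Igfbp2*.

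Positive values included the immediate early genes, at 2.14 for *Klf2*, 3.03 for *Nr4a1*, 3.36 for *Nr4a2*, 3.41 for *Egr2* (adjusted p = 2.38e-05) and 4.98 for *Nr4a3*. Matrix and tendon genes gave 2.79 for *Tgfbi*, 8.77 for *Prg4* (adjusted p = 1.26e-05), 8.997 for *Cilp* and 9.33 for *Thbs4*. The macrophage receptor *Csf1r* gave 2.73, *Wnt11* 4.53, *Alpl* 5.44, *Plxnc1* 5.72 and *F5* 8.48 (adjusted p = 3.18e-08). *Hnf4a*, a factor of the proximal tubule, gave 9.07 and was at 7.81, 33.1 and 5.39 CPM in HFs and 14.2, 4.68 and 6.44 CPM in TFs, highest in HFs replicate 2. *C1qtnf3* gave 9.24 and was at 1.08, 4.54 and 0.19 CPM in HFs and 2.09, 1.91 and 1.1 CPM in TFs.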

How the results depend on the processing

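Of 274 named genes with a call, 216 kept it in every alternative fit in which they were tested. The stricter thresholds were not applied to this count, and some of the 216, such as *Hspa5*, fall short of the fold limit. None of the 274 lost the call with DESeq2 or without KFs replicate 3. Between 30 and 39 lost it when a library of HFs or TFs was left out. At an adjusted p of 0.01 there were 2236 calls (1069 higher, 1167 lower), and with a log2 fold change over 1 in size 1722 (887 and 835). With library size alone 1124 genes were higher and 4609 lower. The test of the difference from culture gave 1904 and 1876 calls under these 2 limits, and 3237 genes passed the fold limit in culture, an alternative added after the data were seen. Leaving out a library of HFs or TFs gave 2743 to 3145 calls, 1238 to 1629 higher and 1289 to 1799 lower genes, and 2892 to 3499 differences from culture, and without KFs replicate 3 these numbers were 5244, 2488, 2756 and 5461. With the replicate block 3635 genes were called (1627 higher, 2008 lower), and the pairing by number had no support in the correlations. *C1qtnf3* reversed, to −0.0162 with library size alone, −1.34 with the proximal tubule covariate, −1.52 without HFs replicate 2 and −0.0436 without TFs replicate 3 (−1.52 to 0.80 over the libraries left out). *Hnf4a* reversed to −0.32 without HFs replicate 2 (−0.32 to 1.47 over the libraries left out). *Pdgfra*, without a call, went to −0.18 with library size alone, and to −0.125 and −0.00207 without HFs replicate 3 and TFs replicate 1 (−0.125 to 0.20). The causes were not tested. Genes near the floor of 3 counts were limited by depth.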

Other observations

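Long noncoding RNAs of the *Hox* clusters, chosen after their values were seen, followed the tail side. *Hotair*, which lies in cluster c, was at 0, 0 and 0 CPM in HFs and 1.87, 1.95 and 2.37 CPM in TFs, at least 14.5-fold lower in HFs, with means of 0 CPM in HFc and 2.57 CPM in TFc. *Hottip*, at the back of cluster a, was at 0 in all 3 HFs libraries and at 0.481, 0.454 and 0.509 CPM in TFs, at least 3.39-fold lower. Both groups of heart libraries thus held no count of *Hotair*.

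*Il33*, an alarm signal released by damaged stromal cells, was low in culture, with means of 0.262 CPM in HFc and 0.281 CPM in TFc, and reached means of 191 CPM in HFs and 29.2 CPM in TFs. *Upk1b*, a mesothelial marker like *Upk3b*, was at 0, 0.352 and 0.455 CPM in HFs and at a mean of 25.4 CPM in HFc, and had no count in TFs or TFc.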
